A study of Mus musculus with 8 samples.

Results

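The genes of bile acid synthesis and transport were examined in the liver of fasted mice that carry PLIN5 S155A, in which a serine that protein kinase A phosphorylates is replaced by alanine. The set holds 10 genes, taken as the rows of the deposited count table whose gene name equals a listed name. They are Cyp7a1, Cyp8b1, Cyp27a1, Cyp7b1, Hsd3b7, Akr1d1, Baat, Slc10a1, Abcb11 and Abcb4. All 10 were found among the 45706 genes of the table, and all 10 passed the filter on low counts, as did 14629 genes in all. Their summed share of a library ran from 0.298% to 0.422%.

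Bulk RNA sequencing was done on the liver of 4 WT and 4 SA/SA mice, with 1 library per mouse. All 8 mice were C57BL/6J females of 4 months, kept on regular chow and then fasted overnight, so no fed mice enter the comparison. SA/SA mice are a whole-body knock-in made with CRISPR-Cas9 in the Plin5 gene, so the change is not limited to hepatocytes. The edit was checked by sequencing in a founder, and the sources used here do not say whether WT mice were littermates.

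Bile acids are made from cholesterol in hepatocytes. The classic route opens with CYP7A1, the rate-limiting enzyme, and the alternative route opens with CYP27A1 and CYP7B1. Bile acids returning from the gut activate the nuclear receptor FXR, encoded by Nr1h4, which raises SHP (Nr0b2) in hepatocytes and restrains Cyp7a1 and Cyp8b1, while a hormone from the ileum acts through the hepatic receptor FGFR4 and its partner beta-Klotho (Klb). LRH-1, encoded by Nr5a2, is an activator of Cyp7a1 and Cyp8b1.

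Sequence before the annotated start is shown for 2 members through which this feedback is known to act on the liver. These are the 250 bases before the RefSeq start site on build GRCm38.p6, read in the direction of transcription. Capitals mark a match to CAAGGNCA, the extended monomer site bound by LRH-1, in Cyp8b1, and a loose form of the inverted repeat bound by FXR in Abcb11. The searched repeat was the arm GNNCA, then any 1 base, then the reverse complement of the arm.
Cyp8b1 (chr9:121916306-121916555, reverse strand): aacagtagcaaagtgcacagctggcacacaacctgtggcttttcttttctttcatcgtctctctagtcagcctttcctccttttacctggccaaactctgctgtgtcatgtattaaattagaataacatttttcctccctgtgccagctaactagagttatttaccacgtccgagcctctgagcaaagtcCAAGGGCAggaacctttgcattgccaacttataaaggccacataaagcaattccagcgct
Abcb11 (chr2:69342617-69342866, reverse strand): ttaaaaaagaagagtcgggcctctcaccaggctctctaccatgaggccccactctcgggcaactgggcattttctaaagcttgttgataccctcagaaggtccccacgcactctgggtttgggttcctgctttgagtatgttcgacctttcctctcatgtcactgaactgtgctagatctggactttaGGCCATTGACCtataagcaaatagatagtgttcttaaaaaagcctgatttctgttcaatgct
The capitals begin 60 bases before the start of Cyp8b1 and 62 bases before the start of Abcb11. Both strands were searched, and neither window held both motifs. Of 32851 windows of the same length, 5.53% held the first motif and 6.6% the second, so the matches describe these letters and are no measurement of binding. Start windows were found in RefSeq for 7 of the 10 members, and all were searched. Those of Cyp27a1, Hsd3b7, Akr1d1, Slc10a1 and Abcb4 held neither motif, so the 2 windows shown are the only member windows with a match. Outside the members, that of Nr0b2 held the first motif, 201 bases before its start, and those of Abcg5 and Abcg8 held neither. Cyp7a1, Cyp7b1 and Baat had no window in the table used.

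Levels are in CPM, the usual unit of estimated counts relative to library size, here with TMM-scaled sizes. Libraries held 39709785 to 54540864 counts. The labels name hepatocytes as the cell type. The summed hepatocyte markers (Alb, Ttr, Apoa1, Serpina1a, Cps1 and Hnf4a) were between 86825 and 124894 CPM, yet other liver cells were marked too, so the samples are treated as liver tissue. In such bulk samples, fewer cells of a type and less RNA per cell cannot be told apart. SA/SA mouse 3 stood apart, with 2066 CPM of lymphocyte markers where the other 7 mice had 20.2 to 48.7 CPM, and WT mouse 2 had 41.8 CPM of pancreatic acinar markers where the others had 4.18 to 6.43 CPM. Summed cholangiocyte markers, of interest because bile duct cells also carry bile acid transporters, were 30.3 to 86.8 CPM in WT mice and 37.5 to 45.7 CPM in SA/SA mice. The corresponding ranges were 98.5 to 202 and 120.2 to 233 CPM for Kupffer cells, 111 to 161 and 97.7 to 133 CPM for endothelial cells, 261 to 349 and 122 to 284 CPM for stellate cells, and 43.5 to 118 and 36.2 to 131 CPM for adipocytes, with Lep at 0 counts in all mice. Only 1 of the 5 adipocyte markers had enough counts to be tested, so that sum is not read as adipocyte content. No marker passed an adjusted p of 0.05. Markers with a higher fitted value in SA/SA mice were 11 of 11 for lymphocytes, 6 of 6 for Kupffer cells, 5 of 6 for hepatocytes, 2 of 5 for endothelial cells, 1 of 6 for cholangiocytes, 0 of 5 for stellate cells, 0 of 2 for acinar cells and 0 of 1 for adipocytes, where 48.8% of all genes tested were higher. An unadjusted p under 0.05 in edgeR was found for 3 lymphocyte markers and 1 acinar marker. Leaving out SA/SA mouse 3 or WT mouse 2 brought none of the 10 members to an unadjusted p under 0.05.

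Plin5 itself was at 206 ± 32.3 CPM in WT mice and 328 ± 117 CPM for SA/SA (SD, n = 4 each), a log2 fold change of 0.67 (standard error, SE, 0.24; 95% interval 0.13 to 1.21; unadjusted p = 0.0193 and adjusted p of 0.993 in edgeR). The genotypes overlapped, with SA/SA mouse 3 at 192 CPM where WT mice had 182 to 254 CPM (exact two-sided permutation, p = 0.114). Without SA/SA mouse 1 the log2 fold change was 0.47 (unadjusted p = 0.0652 in edgeR). Gene counts cannot separate edited from original codons.

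The 10 genes differed widely in level. Per kilobase of the principal transcript in GENCODE release M21, the mean over 8 mice ran from 459 ± 139 CPM per kb for Cyp8b1 to 5.28 ± 0.771 CPM per kb for Cyp7b1 (SD, n = 8). Between them came Slc10a1 at 306 ± 63.6, Hsd3b7 at 299.6 ± 48.4, Cyp27a1 at 172 ± 20.1, Abcb4 at 127 ± 22.2, Baat at 96.3 ± 15.4, Abcb11 at 51.1 ± 8.37, Akr1d1 at 32.9 ± 9.49 and Cyp7a1 at 29.8 ± 14.6 CPM per kb. Within this order, the ranges over mice were separate at 3 places, between Hsd3b7 and Cyp27a1, between Baat and Abcb11, and between Cyp7a1 and Cyp7b1. At the 6 other steps neighbouring genes overlapped, and Slc10a1 exceeded Hsd3b7 in 3 of 8 mice.

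The comparison of SA/SA with WT liver asks whether loss of the phosphorylation site changed the fasting expression of these genes. No member passed the test. At an adjusted p under 0.05 over all genes, 0 of 10 members passed, where 0% of all genes passed. At an unadjusted p under 0.05 there were 0 of 10 members against 3.40% of all genes, and 0 members had WT and SA/SA values without overlap, against 2.30% of all genes. With DESeq2, 0 members passed at either threshold, where 0.0411% and 4.07% of all genes did. Of the 10 genes, 6 had a higher and 4 a lower fitted value in SA/SA mice, with a median log2 fold change of 0.060, while 48.8% of all genes tested were higher and their median was -0.0050.

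**Figure D1:**
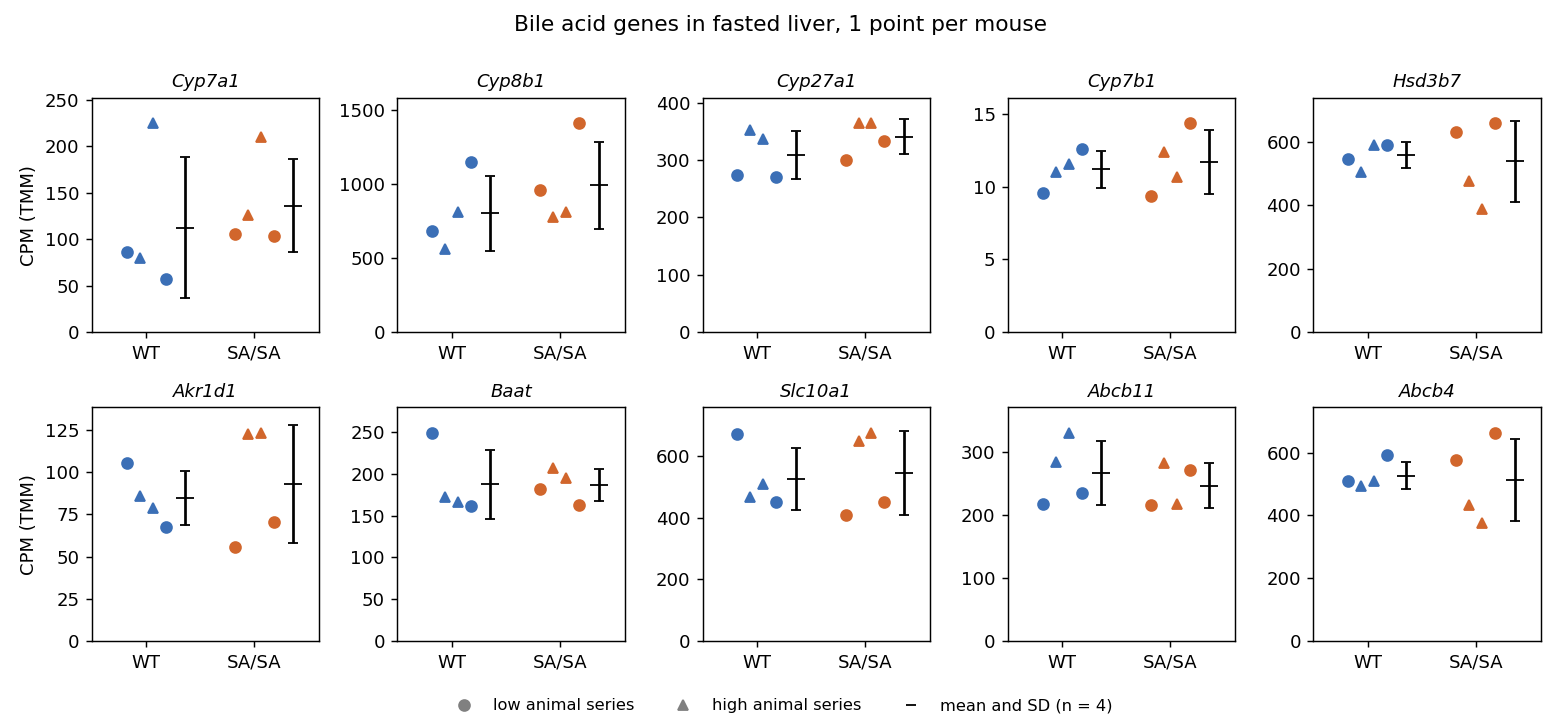
CPM after TMM scaling of the 10 genes in each mouse, with WT in blue and SA/SA in orange, circles for mice of the low and triangles for mice of the high animal number series, and the mean with its SD (n = 4) at the right of each group. Both genotypes overlap in every panel, and Cyp7a1 shows 1 high mouse in each genotype, at 225 and 210.1 CPM.

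**Figure D2:**
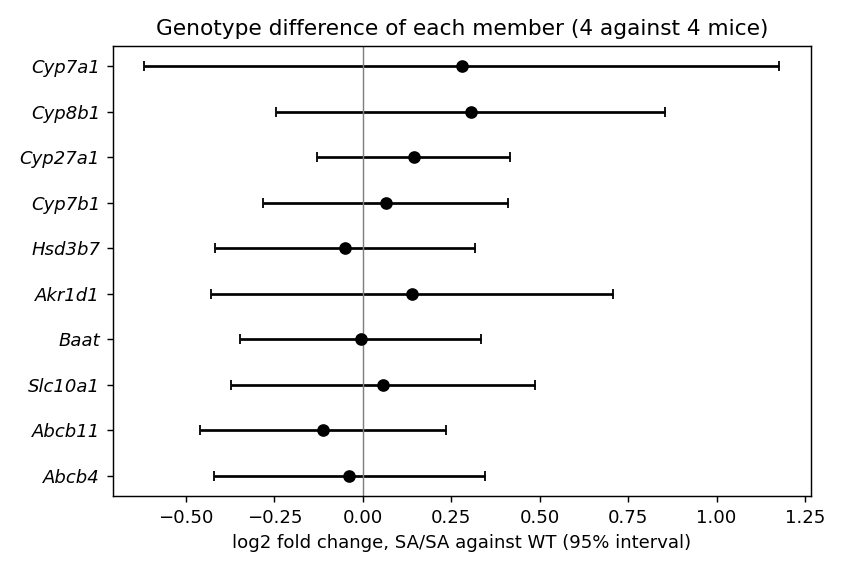
Fitted log2 fold change of each gene, SA/SA against WT, with its 95% interval in edgeR (4 against 4 mice). Every interval includes 0, and that of Cyp7a1 is the widest, from -0.62 to 1.18.

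Of the enzymes that open the pathways, Cyp7a1 (ENSMUSG00000028240, chromosome 4 of GRCm38, 6265612 to 6275633, reverse strand, 6 exons) was at 86.3, 80.1, 225 and 57.5 CPM in WT mice 1 to 4. In SA/SA mice 1 to 4 it was at 105, 126, 210.1 and 103 CPM. One mouse of each genotype, WT mouse 3 and SA/SA mouse 3, was far above the others, and the remaining SA/SA mice were above the remaining WT mice. The log2 fold change of Cyp7a1 was 0.28 (SE 0.40, adjusted p of 0.993 in edgeR), and the 95% interval spanned folds from 0.652 to 2.26. Without WT mouse 3 the value was 0.87 (unadjusted p = 0.0104, adjusted p of 0.9999 from the same test), and without SA/SA mouse 3 it was -0.0071, so the size and sign rested on single mice. Exact permutation of the genotypes (two-sided) gave p = 0.371, where the smallest p for 4 mice against 4 is 0.0286.

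Cyp8b1 (ENSMUSG00000050445, chromosome 9, 121914356 to 121916305, reverse strand) is a single-exon gene for the sterol hydroxylase that sets the share of cholic acid among bile acids. It was at 683, 562, 808 and 1147 CPM in WT mice 1 to 4 and at 960.4, 773, 812 and 1408 CPM in SA/SA mice 1 to 4. The lowest 2 mice were WT and the highest was SA/SA, with overlap between. Its log2 fold change was 0.30 (SE 0.25, adjusted p of 0.993 in edgeR, interval -0.24 to 0.85). Without WT mouse 4 it was 0.53 (unadjusted p = 0.0441, adjusted p of 0.9996), and without SA/SA mouse 4 it was 0.086.

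Cyp27a1 (ENSMUSG00000026170, chromosome 1, 74713574 to 74737892, forward strand, 9 exons) encodes the mitochondrial sterol hydroxylase of the alternative route. WT mice 1 to 4 had 275, 352, 336 and 271 CPM and SA/SA mice 1 to 4 had 301, 364, 364 and 333 CPM. It was the steadiest member, with a standard deviation of log2 CPM over 8 mice of 0.17, at percentile 24.9 of all genes tested, against 0.67 and percentile 88.2 for Cyp7a1. The log2 fold change was 0.14 (SE 0.12, adjusted p of 0.993), and its interval, from -0.13 to 0.42, has its upper end at a fold of 1.33. With 1 mouse left out it was 0.086 (without WT mouse 4) to 0.21. Cyp7b1 (ENSMUSG00000039519, chromosome 3, 18071950 to 18243338, reverse strand, 6 exons), the oxysterol hydroxylase of the same route, was at 11.2 ± 1.26 CPM in WT mice and 11.7 ± 2.18 CPM for SA/SA (SD, n = 4 each), from 404 to 727 counts per library. It is annotated over the small gene Gm23686 on the same strand. Its log2 fold change of 0.065 was under its SE of 0.16 (adjusted p of 0.996).

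The next enzymes act on the sterol ring and on the side chain. Hsd3b7 (ENSMUSG00000042289, chromosome 7, 127800604 to 127803802, forward strand, 7 exons), the steroid dehydrogenase that follows the first hydroxylation, was at 547, 504, 588 and 590.0 CPM in WT mice 1 to 4. In SA/SA mice 1 to 4 it was at 629.7, 477, 388 and 658 CPM, so that the SA/SA mice lay on both sides of the WT mice. It overlaps Gm49388 on the same strand and 9430064I24Rik on the other, and reads of these could be shared. The log2 fold change was -0.050 (SE 0.16, adjusted p of 0.996 in edgeR). Overlaps are also annotated for Akr1d1 (Gm7463, same strand), Abcb4 (Gm17936, same strand) and Abcb11 (Gm13613 and Gm13614, other strand).

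Akr1d1 (ENSMUSG00000038641, chromosome 6, 37530173 to 37568815, forward strand, 9 exons) encodes the reductase that bends the sterol ring. WT mice 1 to 4 had 106, 86.0, 78.6 and 67.9 CPM, and SA/SA mice 1 to 4 had 55.8, 122, 124 and 70.6 CPM. Here too the SA/SA mice were split, with 2 mice above all WT mice, 1 below all of them and 1 within their range. The log2 fold change was 0.14 (SE 0.26, adjusted p of 0.996 in edgeR). Baat (ENSMUSG00000039653, chromosome 4, 49489422 to 49506557, reverse strand, 4 exons), which joins bile acids to taurine, was at 187 ± 41.5 CPM in WT mice and 187 ± 18.9 CPM for SA/SA (SD, n = 4 each), a log2 fold change of -0.0057 (SE 0.15, adjusted p of 0.9998). WT mouse 1, at 249 CPM, was above all others, and without it the value was 0.17.

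Among the transporters, Slc10a1 (ENSMUSG00000021135, chromosome 12, 80953183 to 80968705, reverse strand, 6 exons), the sodium-dependent carrier that takes bile acids up from the blood, was at 672, 467, 508 and 451 CPM in WT mice 1 to 4. SA/SA mice 1 to 4 had 409, 647, 676 and 450.0 CPM. The high values fell in 1 WT mouse and 2 SA/SA mice, and the log2 fold change was 0.056 (SE 0.19, adjusted p of 0.996 in edgeR). Abcb11 (ENSMUSG00000027048, chromosome 2, 69238282 to 69342616, reverse strand, 29 exons), the bile salt export pump whose start window is printed above, was at 267 ± 51.2 CPM in WT mice and 247 ± 35.3 CPM for SA/SA (SD, n = 4 each). Its log2 fold change was -0.11 (SE 0.16, adjusted p of 0.993), the lowest of the 10. Abcb4 (ENSMUSG00000042476, chromosome 5, 8893717 to 8959231, forward strand, 28 exons), which moves phosphatidylcholine into bile, was at 509, 495, 511 and 591 CPM in WT mice 1 to 4 and at 575, 434, 377 and 664 CPM in SA/SA mice 1 to 4. The SA/SA mice again lay on both sides of the WT mice, with a log2 fold change of -0.038 (SE 0.17, adjusted p of 0.996).

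Animal numbers in the labels form 2 runs, below 200 for mice 1 and 4 and above 800 for mice 2 and 3, whatever the genotype. They are called the low and the high series. What the series stand for is not stated. The sign of the genotype difference was the same in both series for 4 of 10 members and opposite for 6 of 10, where it was opposite for 54.9% of all genes, a share near that of the members. Cyp7a1, Cyp8b1, Cyp27a1 and Cyp7b1 were higher in SA/SA mice in both, with mean log2 CPM apart by 0.56, 0.39, 0.22 and 0.080 among low-numbered mice and by 0.28, 0.23, 0.082 and 0.026 among high-numbered mice. For the other 6 the sign was opposite. Akr1d1 was apart by -0.43 among low-numbered and 0.58 among high-numbered mice, Slc10a1 by -0.36 and 0.44, and Baat by -0.22 and 0.25. Hsd3b7 differed by 0.18 and -0.34, Abcb4 by 0.17 and -0.31, and Abcb11 by 0.10 and -0.31.

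The interaction of genotype with series, fitted with edgeR's quasi-likelihood test over all genes, had an unadjusted p under 0.05 for 4 of 10 members, against 11.1% of all genes. In edgeR these were Akr1d1 (1.04 on the log2 scale, SE 0.29, adjusted p = 0.297), Slc10a1 (0.83, SE 0.26, adjusted p = 0.321), Hsd3b7 (-0.52, SE 0.21, adjusted p = 0.415) and Abcb4 (-0.48, SE 0.20, adjusted p = 0.426). None passed adjustment over all genes, nor did any gene of the table (0%). Each series holds 2 mice per genotype. The values of these 4 genes were correlated over the same mice, as given below, so they are not read as 4 separate results.

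**Figure D3:**
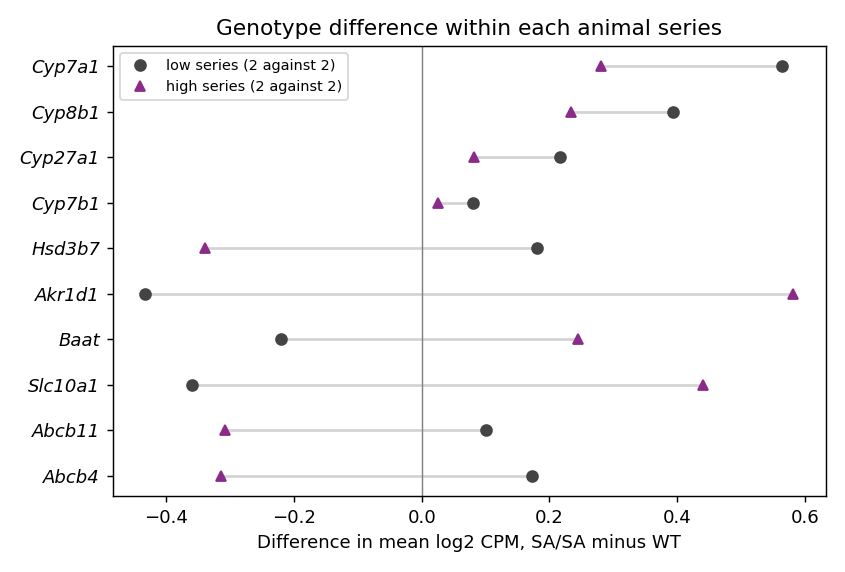
Difference in mean log2 CPM, SA/SA minus WT, within the low series (circles) and the high series (triangles), with 2 against 2 mice in each. The sign is opposite for 6 of 10 genes, against 54.9% of all genes, and Akr1d1 runs from -0.43 to 0.58 and Hsd3b7 from 0.18 to -0.34.

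These 4 genes also formed the pairs with the highest r over mice. Of the 45 pairs of members, 2 passed a Benjamini-Hochberg adjusted p of 0.05 for Pearson's r of log2 CPM over 8 mice, in two-sided exact permutation tests. The share of such pairs among all genes is not given here, so the count is not read as particular to the members. Hsd3b7 went with Abcb4 (r = 0.95, p = 0.000124, adjusted p = 0.00558; Spearman's rho = 0.98, p = 0.000397, adjusted p = 0.0179; exact permutation tests), and r was 0.85 without the 2 mice farthest from the median of Hsd3b7. Akr1d1 went with Slc10a1 (r = 0.95, p = 0.00104, adjusted p = 0.0234; rho = 0.93, p = 0.00223, adjusted p = 0.0502; exact permutation tests), with r = 0.90 without the 2 farthest mice. In the latter pair 3 mice, WT mouse 1 and SA/SA mice 2 and 3, lay above the 5 others in both genes, so the coefficient rests in part on that gap. Akr1d1 and Hsd3b7 ran in opposite directions (r = -0.84, exact permutation p = 0.00670, adjusted p = 0.0985), which did not pass. With the series means subtracted and mice permuted within series, r was 0.91 for Hsd3b7 with Abcb4 (exact permutation p = 0.00347, adjusted p = 0.0781) and 0.96 for Akr1d1 with Slc10a1 (exact permutation p = 0.0104, adjusted p = 0.156), and 0 of 45 pairs passed. Within series 576 permutations are possible, too few for a single pair to pass adjustment over 45 pairs on its own. That 0 pairs passed therefore decides nothing about them. The pairs without Cyp7a1 and these alternatives were added after the values had been seen.

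The 2 SA/SA mice with the most Akr1d1, at 122 and 124 CPM, and the WT mouse at 106 CPM were also the 3 mice with the most summed hepatocyte markers, at 119900, 124894 and 105964 CPM, where the 5 others had 86825 to 99003 CPM. The part of these abundant transcripts in the pattern was not tested.

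**Figure D4:**
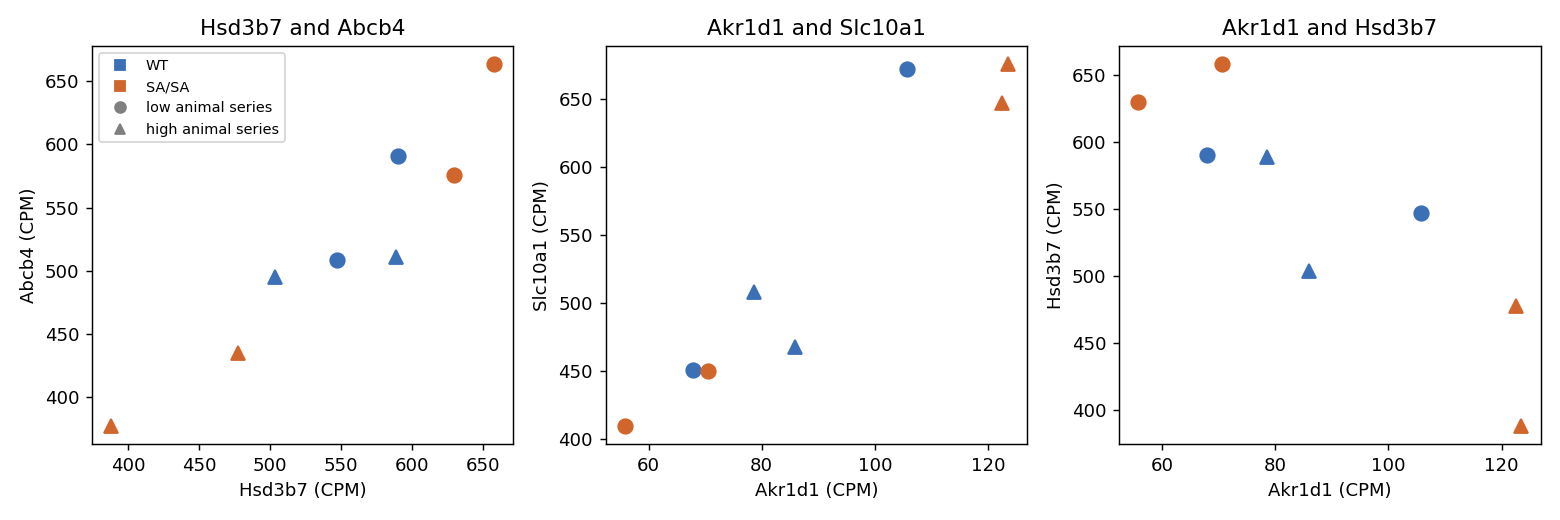
CPM of Hsd3b7 against Abcb4, Akr1d1 against Slc10a1 and Akr1d1 against Hsd3b7, 1 point per mouse, with WT in blue, SA/SA in orange, circles for the low and triangles for the high series. The first 2 panels rise (r = 0.95 in each, on log2 CPM) and the last falls (r = -0.84).

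Cyp7a1 followed none of the other members closely. Of 9 relations, the strongest was with Cyp27a1 (r = 0.64, exact permutation p = 0.0926, adjusted p = 0.647 over the 9; rho = 0.62, p = 0.115, adjusted p = 0.751; r = 0.64 without WT mouse 3 and SA/SA mouse 3). For Cyp8b1, which shares regulators with it, r was -0.14 (exact permutation p = 0.751) and rho was 0 (p = 1). Among 7436 genes with a mean of at least 10 CPM, those most like Cyp7a1 over the 8 mice were 1110012L19Rik (r = 0.90), Nfia (r = 0.88) and Gtf3c2 (r = 0.88), given as a description of the highest values in a long list.

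Levels were compared between the series as well. In a fit of series and genotype with edgeR's quasi-likelihood test, 5 of 10 members had an unadjusted p under 0.05, against 12.8% of all genes, and 0 passed adjustment, as for all genes. Cyp7a1 was at 80.1 to 225 CPM in the high and 57.5 to 105 CPM in the low series, a log2 difference, high minus low, of 0.89 (SE 0.31, adjusted p = 0.282). Cyp27a1 was at 336 to 364 CPM against 271 to 333 CPM (0.27, SE 0.087, adjusted p = 0.273), the only member without overlap between series, against 6.84% of all genes. The log2 difference was below 0 for Cyp8b1 (-0.50, SE 0.20, adjusted p = 0.335), Abcb4 (-0.37, SE 0.13, adjusted p = 0.288) and Hsd3b7 (-0.32, SE 0.13, adjusted p = 0.372). Without WT mouse 3 the difference in Cyp7a1 was 0.48. Of the 36 other pathway genes tested, 8 had an unadjusted p under 0.05 between series and 5 had no overlap (Dbp, Nr1h4, Cyp2c70, Nr1h3 and Slco1b2), against 12.8% and 6.84% of all genes, and none passed adjustment. Nr1h4, the gene of FXR, was at 138 to 147 CPM in the high and 102 to 116 CPM in the low series, a log2 difference of 0.39 (SE 0.082, adjusted p = 0.155 in edgeR). Dbp, a clock output factor on the list of regulators that was singled out, as were the other genes without overlap, after its values were seen, was at 66.0 to 153 CPM in the high and 9.33 to 24.5 CPM in the low series, with an adjusted p of 0.0618 in edgeR.

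The wider pathway was read from 39 further genes in 3 lists. Of these, 36 had enough counts to be tested, and Ch25h, Slc51a and Gpbar1 did not. None passed an adjusted p of 0.05, 18 were higher and 18 lower in SA/SA mice, and the median log2 fold change was -0.0038. At an unadjusted p under 0.05 there were 2 of 36, both lower, against 1.98% of all genes lower and 1.42% higher, and 1 of 36 had no overlap between genotypes, against 2.30% of all genes. With 1 mouse left out, the count at an unadjusted p under 0.05 was 2 to 4 for these genes and 357 to 894 over all genes. With all mice it was 497 over all genes. Both upper ends, 4 and 894, came without SA/SA mouse 1. By list, 0 of 11 tested genes of synthesis and conjugation, 2 of 11 of transport and bile composition and 0 of 14 regulators reached an unadjusted p under 0.05. The lists were chosen with earlier results of these data known, so these counts are a description. The 2 genes lie head to head, so they are not read as 2 separate results.

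Both of these genes encode the sterol exporter that carries cholesterol into bile, ABCG5 with ABCG8. Abcg8 (ENSMUSG00000024254, chromosome 17, 84676302 to 84700333, forward strand) was at 90.6, 80.4, 67.8 and 71.0 CPM in WT mice 1 to 4 and at 56.9, 64.7, 52.4 and 55.6 CPM in SA/SA mice 1 to 4. Every SA/SA mouse was below every WT mouse (exact two-sided permutation, p = 0.0286, the smallest that 4 against 4 allow). That p follows from the lack of overlap, which was itself a ground for naming a pathway gene, so it adds no further support. The log2 fold change of Abcg8 was -0.43 (SE 0.12, unadjusted p = 0.00441, adjusted p of 0.993 in edgeR), with -0.51 in the low and -0.34 in the high series, and between -0.49 and -0.34 with any 1 mouse left out.

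Abcg5 (ENSMUSG00000040505, chromosome 17, 84658234 to 84683011, reverse strand) was at 79.8, 76.1, 52.9 and 58.0 CPM in WT mice 1 to 4. SA/SA mice 1 to 4 had 53.5, 51.4, 46.7 and 40.5 CPM, with overlap only between WT mouse 3 and SA/SA mouse 1. Its log2 fold change was -0.47 (SE 0.15, unadjusted p = 0.0112, adjusted p of 0.993; exact two-sided permutation, p = 0.0571), with -0.55 in the low and -0.37 in the high series. With DESeq2 the adjusted p was 0.848 for Abcg5 and 0.457 for Abcg8. These genes lie head to head, and 109 bases lie between the start sites RefSeq gives for them. A further annotated start of Abcg8 lies inside Abcg5 on the other strand, so the annotated genes overlap, and strand use in the counting is not given in the sources used here. The stretch between the starts, shown because the 2 genes share it, is the following, on build GRCm38.p6 and the forward strand.
Abcg5 to Abcg8 (chr17:84683012-84683120, forward strand): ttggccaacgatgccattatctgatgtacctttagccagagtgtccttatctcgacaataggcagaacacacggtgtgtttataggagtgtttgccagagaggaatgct

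**Figure D5:**
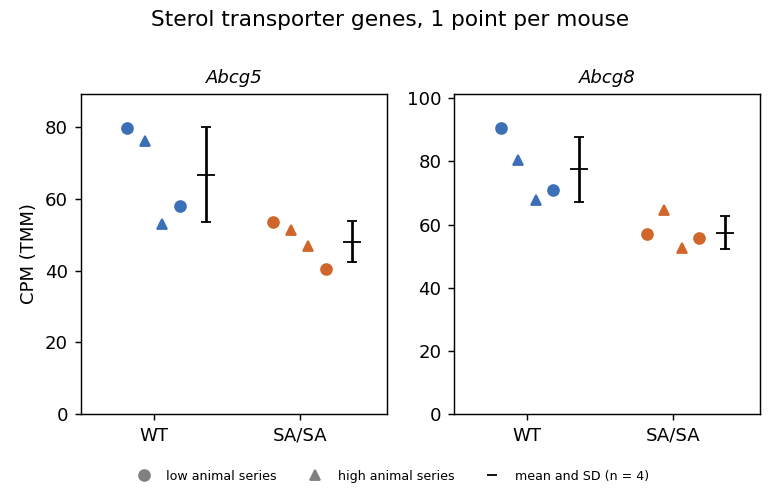
CPM after TMM scaling of Abcg5 and Abcg8 in each mouse, with WT in blue, SA/SA in orange, circles for the low and triangles for the high series, and the mean with its SD (n = 4) at the right of each group. All SA/SA values of Abcg8 (52.4 to 64.7 CPM) are below all WT values (67.8 to 90.6 CPM), and Abcg5 overlaps by 1 mouse.

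The regulators of the feedback loop showed no difference that passed the test. Nr1h4 (FXR) was at 124 ± 21.5 CPM in WT mice and 129 ± 18.5 CPM for SA/SA (SD, n = 4 each), a log2 fold change of 0.063 (SE 0.15, adjusted p of 0.996 in edgeR). Nr5a2 (LRH-1) was at 50.1 ± 3.27 and 46.3 ± 8.66 CPM, Fgfr4 at 45.5 ± 4.52 and 45.2 ± 8.42 CPM and Klb at 29.9 ± 1.96 and 30.3 ± 3.35 CPM (SD, n = 4 each), with log2 fold changes of -0.11, -0.0090 and 0.019. Nr0b2 (SHP), an FXR target, was the most variable of the 5. WT mice 1 to 4 had 19.7, 52.7, 11.5 and 13.7 CPM and SA/SA mice 1 to 4 had 14.0, 38.2, 26.1 and 16.5 CPM, which overlapped throughout. Its log2 fold change was -0.042 (SE 0.48, adjusted p of 0.999), and without WT mouse 2 it was 0.66.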

How the data were processed

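Stranded mRNA libraries of liver, 1 for each of 4 WT and 4 SA/SA mice, were sequenced. Salmon's estimated counts for genes were deposited by the authors, scaled for average transcript length and not for library size. The submitters' processing notes name GRCm38, bcl2fastq, STAR, SAMtools, MultiQC and DESeq2, and salmon's version, the annotation and the use of strand are not given in the sources used here. Columns were matched to mice by animal number. Length scaling can move a gene's count where isoforms differ between mice.

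Estimated counts were rounded, filtered with filterByExpr (14629 of 45706 genes), TMM-normalized and tested in R 4.3.3 with edgeR 4.0.16 (quasi-likelihood test), all 8 mice, no block, Benjamini-Hochberg adjustment over all genes. Standard errors come from the F statistic, and a prior count of 2 was used for log2 CPM. Single values were compared by exact permutation tests over 70 assignments. Alternatives were DESeq2 1.42.0, limma-voom (limma 3.58.1), other scalings and filters, blocks and leaving out each mouse. Fits were tested on simulated data. No 2 libraries were copies (smallest chi-square 40.2 per gene). Named were the 10 members, Plin5, listed pathway genes at an unadjusted p under 0.05 or without overlap, 5 regulators and the 3 genes most like Cyp7a1. The members and lists were chosen with earlier results of these data known. Coordinates and transcript lengths are from GENCODE release M21 (GRCm38), and start windows from RefSeq.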

Additional observations from a re-analysis of the deposited data

Results flagged for a closer look

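In 36 groups of 4 mice (18 genes in 2 genotypes), 4 single values lay far from the rest of their group by Dixon's criterion. Chance gives about 1.8 in independent groups. These groups reuse the same mice, and all 4 values came from WT mouse 1 or WT mouse 4, so no excess is read from the count. Baat was at 249 CPM in WT mouse 1 and 161 to 172 CPM in the 3 other WT mice. Abcb4 was at 591 CPM in WT mouse 4 and 495 to 511 CPM in the 3 others. Plin5 was at 254 CPM in WT mouse 1 and 182 to 194 CPM in the 3 others, and Klb at 32.8 CPM in WT mouse 4 and 28.5 to 29.2 CPM in the 3 others. Dixon's criterion picked out no SA/SA mouse for these genes.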

How the results depend on the processing

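Between genotypes, no member and no gene of the pathway lists passed an adjusted p of 0.05 under any alternative. Over all genes, DESeq2 called 6 genes between genotypes where edgeR called 0. Between series, no member passed with the other scalings, with DESeq2 or with 1 mouse left out. The series difference had a lower adjusted p in DESeq2 than in edgeR for Cyp27a1 (0.0573 against 0.273) and Cyp7a1 (0.0702 against 0.282). For the pathway lists, no alternative is given between series. Leaving out 1 mouse gave 0 calls between genotypes over all genes, and 0 calls among members between series. Unadjusted p was under 0.05 for 497 genes over the whole table, 851 without a filter on low counts, and 357 to 894 with 1 mouse left out (894 without SA/SA mouse 1). Leaving out each mouse in turn gave log2 fold changes from -0.0071 to 0.87 for Cyp7a1, from -0.049 to 0.16 for Cyp7b1, from -0.16 to 0.080 for Hsd3b7, from -0.028 to 0.32 for Akr1d1, from -0.072 to 0.17 for Baat, from -0.064 to 0.20 for Slc10a1, from -0.20 to 0.0084 for Abcb11 and from -0.19 to 0.086 for Abcb4. The ranges were -0.020 to 0.15 for Nr1h4, -0.36 to 0.66 for Nr0b2, -0.18 to 0.0092 for Nr5a2, -0.14 to 0.065 for Fgfr4 and -0.046 to 0.067 for Klb. For the series difference they were 0.48 to 1.09 for Cyp7a1, -0.11 to 0.14 for Cyp7b1 and -0.11 to 0.16 for Baat. In the log2 fold change between genotypes, Cyp8b1 (0.086 to 0.53) and Cyp27a1 (0.086 to 0.21) kept their sign. Plin5 ran from 0.47 to 0.86 in the same comparison. With limma-voom the sign turned for Baat (0.014) and Nr0b2 (0.10), and with library size alone for Klb (-0.023) and for the correlation of Cyp7a1 with Baat (-0.034). The cause was not tested. The correlations of Hsd3b7 with Abcb4 and of Akr1d1 with Slc10a1 passed with both other scalings and with genotype means subtracted (r from 0.91 to 0.97), but not with animal series means subtracted and mice permuted within series (0.91 and 0.96, adjusted p = 0.0781 and 0.156 in exact permutation tests). These alternatives were chosen after seeing the data. With 576 permutations within series, no pair could pass adjustment over 45 pairs on its own, so the failure to pass decides nothing.

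Same-numbered mice had correlated deviations of 0.056, 0.17, -0.11 and 0.13, not all above 0.1, so the numbers were not taken as pairs, although for WT mice 1, 2 and 4 the best partner was the same-numbered SA/SA mouse. With a replicate block, 0 genes were called, the values were 0.42 for Cyp7a1 (unadjusted p = 0.0360) and 0.31 for Cyp8b1 (unadjusted p = 0.0344) with an adjusted p of 0.967 for both in edgeR, and the sign turned for Baat (0.013) and Nr0b2 (0.11). The intervals of the members, with 4 mice a group, limit what could be seen.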
